A study of Saccharomyces cerevisiae W303 with 4 samples.

Results

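The 9 translation factor genes described here encode abundant soluble factors that work on the ribosome in yeast. They are TEF1 and TEF2 (elongation factor eEF1A), EFT1 and EFT2 (eEF2), YEF3 (eEF3), EFB1 (the exchange factor of eEF1A), HYP2 (eIF5A), and TIF1 and TIF2 (initiation factor eIF4A). They were taken by name from the 6002 nuclear protein-coding genes of the R64 annotation. Each gene was scored by its window, which is the gene body from start to stop codon with the 500 bp upstream of the start codon. Peaks of Zuo1 were searched in this window.

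The peaks come from chromatin immunoprecipitation followed by sequencing (ChIP-seq), in which DNA crosslinked to a protein is precipitated with an antibody and sequenced. All samples are of the yeast strain W303 with a C-terminal Myc tag on Zuo1, from asynchronous cultures for which no treatment is labelled. There are 2 IP libraries, precipitated for the Myc tag, and 2 input libraries of sheared chromatin. No strain without the tag was analysed here, and all groups share the tag. The authors called peaks on all libraries together, so the list of 1594 peaks (1543 nuclear) holds no value for a single replicate and no spread between cultures. Fold enrichment is the authors' value at the summit of a peak, the IP signal over the local background. The published peak-calling command lists an input file among the treatment files and an IP file among the controls, and the folds are read here as IP over input, which is an assumption.

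Zuo1 is a J-protein that, with Ssz1, sits on the ribosome near the exit of the polypeptide tunnel and helps nascent chains to fold. It is also found in the nucleus, and the study addressed its binding to G-quadruplex (G4) motifs in chromatin. The factors described here act in translation in different ways. In elongation, eEF1A brings aminoacyl-tRNA to the ribosome, eEF2 moves the ribosome along the mRNA, and eEF3, an ATPase of fungi, releases tRNA from the exit site. Their genes are among the strongly transcribed genes of growing yeast, and 3 of the factors are encoded by pairs of nearly identical genes.

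The members of these pairs can hardly be told apart by their coding sequences. TEF1 (YPR080W, chromosome XVI, 700594 to 701970) and TEF2 (YBR118W, chromosome II, 477671 to 479047) differ in 2 of 1377 coding bases, at bases 762 and 834 counted from the first base of the start codon. Both differences leave the protein of 458 residues unchanged. The stretch from base 751 to base 845 of both genes is shown because it holds all the coding differences between them, on the coding strand of R64, with the differing bases in capitals.
TEF1: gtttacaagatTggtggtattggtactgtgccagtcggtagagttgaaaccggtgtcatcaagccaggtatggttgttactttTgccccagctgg
TEF2: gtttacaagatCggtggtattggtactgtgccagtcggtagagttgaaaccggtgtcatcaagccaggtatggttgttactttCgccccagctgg

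EFT1 (YOR133W, chromosome XV, 575098 to 577626) and EFT2 (YDR385W, chromosome IV, 1243230 to 1245758) differ in 4 of 2529 coding bases and encode the same 842 residues. TIF1 (YKR059W, chromosome XI, 554987 to 556174) and TIF2 (YJL138C, chromosome X, minus strand, 153504 to 154691) differ in 6 of 1188 bases and encode the same 395 residues. The reads of this experiment are 64 bases long. Of all 64-base words in the gene body, 90.3% in TEF1 and in TEF2, 89.6% in EFT1 and in EFT2, and 81.3% in TIF1 and in TIF2 occur more than once in the genome. Over the whole genome the share is 5.52%, and 256 of 6001 gene bodies (4.27%) have at least 50% of such words. A read from such a stretch fits both copies equally well, and how the aligner assigned it is not given in the sources used here. Peaks over the bodies of a pair are therefore not independent measurements, and the 9 genes stand for 6 distinct proteins. In the 500 bp upstream and the 400 bp downstream of all 6 paired genes, no word was repeated. The bodies of YEF3, EFB1 and HYP2 also hold no repeated word.

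All 9 genes had a peak in their window, with 10 peaks in all, whereas 1465 of the 6002 protein-coding genes (24.4%) had at least 1. A peak of 3-fold or more was found at 7 of the 9 genes, against 10.8% of all genes, and the exceptions were TIF1 and TIF2. The median of the highest fold enrichment per gene was 4.13 over the 9 genes and 2.80 over the 1465 genes with a peak. No test was made of these shares, because the genes were proposed with earlier results of these data known. They are given as a description beside the background.

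The peaks covered a larger share of the gene bodies than of the upstream sequence, and HYP2 was covered in full in both. At least 50% of the gene body was covered by peaks in 8 of the 9 genes, against 8.11% of all protein-coding genes, with a range from 48.3% in TIF1 to 100% in TEF1, TEF2 and HYP2. Taken over all their bases, 90.0% of the 9 gene bodies and 8.27% of all protein-coding bodies lay in a peak. Upstream of the start codon the covered share was 16.0%, against 6.70% over all protein-coding genes. It came from 3 genes, as 6 of the 9 had no upstream base in a peak. TEF1 with 23.6% and TEF2 with 20.0% had a part of it, and HYP2 had all 500 bp. Most of the covered upstream bases are thus those of HYP2, and a share above the background rests on this gene. Its peak also covers neighbouring genes, as described below. A summit in the gene body was found at 8 genes (background 13.8%), and a summit in the 500 bp upstream at 0 genes (background 5.98%). Over all protein-coding genes with a peak, the body was at least 50% covered in 487 and the upstream sequence in 429 of 1465.

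**Figure D1:**
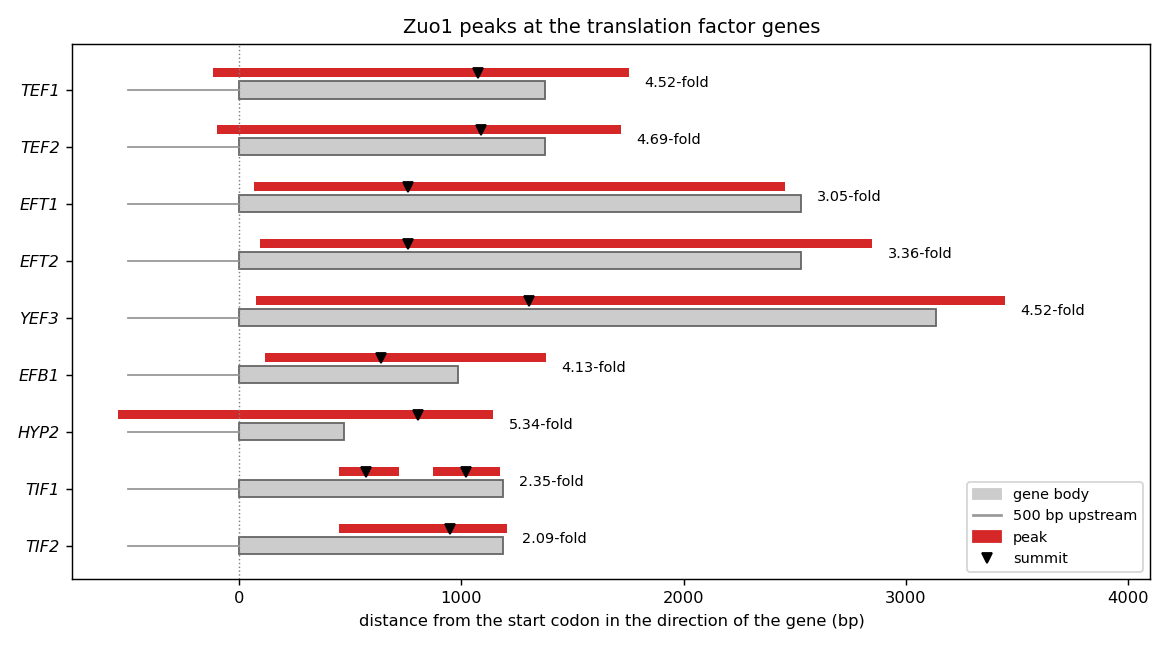
Peaks of Zuo1 (red) at the 9 translation factor genes, aligned at the start codon, with the distance in bp on the x axis, gene bodies as grey boxes, the 500 bp upstream as a line, and summits as triangles. Peaks span most of the body in TEF1, TEF2, EFT1, EFT2, YEF3, EFB1 and HYP2 but cover 48.3% of TIF1 and 62.3% of TIF2, and the number beside each gene is its highest fold enrichment.

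The peaks were long. Of the 10 peaks, 7 measured 1000 bp or more, compared with 218 of the 1543 nuclear peaks (14.1%), and the median length was 1755 bp against 426 bp for nuclear peaks. TIF1 and TIF2 hold the 3 shorter peaks. Length and coverage of the body are measures of the same peaks and are not independent.

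The depth behind each fold was recovered from the fold and the Poisson p-value of the list, which together fix the number of IP fragments over the summit and the local background. All 10 summits gave a whole number of fragments within a tolerance of 0.05. They were covered by 76 to 218 fragments, with a median of 149, against a median of 92 over the nuclear peaks. The local background, scaled to the IP, ranged from 33.4 to 42.8 fragments at the 10 summits. Its median there was 39.1, against 36.7 over the nuclear peaks. The summits of TIF1 and TIF2 lay below the nuclear median and those of the other genes above it. Intervals given below are exact 95% Poisson intervals of the fragment number. They cover counting error only and say nothing of the variation between cultures.

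HYP2 (YEL034W, chromosome V, 85676 to 86149), which encodes the hypusine-containing factor eIF5A that helps the ribosome through stalling peptide sequences, had the highest value. Its peak from 85129 to 86818 reached a fold enrichment of 5.34 (interval 4.66 to 6.09) with 218 fragments. The summit at 86482 does not lie in HYP2 but 333 bp past its stop codon, in MTC7 (86179 to 86598). The same peak also covers 417 bp of UTR5 on the other side of HYP2 and a serine tRNA gene from 86604 to 86685. With the summit required to lie in the window, HYP2 was the gene that lost its peak. Of the 64-base words in the peak, 30 of 1627 (1.84%) were repeated, and they lie at the tRNA gene. Whether the signal belongs to HYP2, MTC7 or the tRNA gene cannot be told apart in this list. The 101 bases around the summit are shown, in R64 from chrV:86432-86532, because they are not HYP2 sequence and contain a run of 25 A.
HYP2 peak, summit: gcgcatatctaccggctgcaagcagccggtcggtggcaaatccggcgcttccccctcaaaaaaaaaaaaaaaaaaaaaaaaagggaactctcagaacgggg

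TEF1 and TEF2 followed. At TEF2 the peak from 477571 to 479390 had a fold enrichment of 4.69 (4.07 to 5.39) with 199 IP fragments over a background of 41.6. At TEF1 the peak from 700476 to 702349 had 4.52 (3.91 to 5.19) with 197 fragments over 42.8. The ratio of TEF1 to TEF2 was 0.962, with an exact conditional binomial 95% interval from 0.786 to 1.18 (log2 ratio -0.06, interval -0.35 to 0.24). The interval treats the fragments of both genes as separate counts, which they are not where reads fit both copies. Both summits lie in the coding sequence near its 3′ end, at base 1077 in TEF1 and base 1089 in TEF2, which is 12 bp apart on the common coordinates. The sequence around them is the same in both genes. It is shown for TEF1, from base 1027 to base 1127 (chrXVI:701620-701720, coding strand), to mark where the signal of this pair peaked.
TEF1 summit: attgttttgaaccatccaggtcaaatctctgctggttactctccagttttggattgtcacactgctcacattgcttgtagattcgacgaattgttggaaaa

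Within 261 bp of the summit, the length of the shortest peak in the list, 95.9% of the words in TEF1 and 98.5% in TEF2 were repeated. The folds of the pair were thus measured over sequence in which most reads have more than 1 place. The peaks also reach into sequence that is not shared. They begin 118 bp before the start codon of TEF1 and 100 bp before that of TEF2, and end 379 bp and 343 bp past the stop codons. If 261 bp is taken as the fragment length to which MACS extends reads, 117 bp of the TEF1 peak and 81 bp of the TEF2 peak, all downstream of the stop codon, lie too far from the repeated words to be reached by such reads. In these stretches, under this assumption, all of the signal belongs to 1 copy. The TEF1 peak enters GRS2, which encodes a second glycyl-tRNA synthetase, by 236 bp, and the TEF2 peak enters MUD1, which encodes a protein of the U1 snRNP, by 53 bp.

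YEF3 (YLR249W, chromosome XII, 636780 to 639914) had a fold enrichment close to that of TEF1, over sequence without repeated words. The place of its peak along the gene differs from that at TEF1 and TEF2. Its peak from 636855 to 640224, at 3370 bp the longest of the 10, begins 75 bp inside the coding sequence and ends 310 bp past the stop codon. The fold enrichment of 4.52 (3.90 to 5.20) rested on 191 fragments, and the summit lies at base 1305, at 41.6% of the gene. Here 0 of 3307 words in the peak were repeated, so each read has a single place. HEF3 (YNL014W), its paralog, which is hardly expressed in growing cells, had no peak in its window, and the nearest peak was 1176 bp from it. The paralogs share 74.5% of their coding bases and 83.8% of their residues, with no common run longer than 41 bases, and can be told apart by 64-base reads.

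EFB1 (YAL003W, chromosome I, 142174 to 143160) encodes the subunit of eEF1B that exchanges GDP for GTP on eEF1A. It has 2 coding exons, and its intron holds the snoRNA gene SNR18. The peak from 142291 to 143555 begins in the intron 117 bp after the start codon, covers SNR18 whole and ends 395 bp past the stop codon. Its fold enrichment was 4.13 (3.53 to 4.81) with 166 fragments. The summit at 142812 lies in the second exon and not in SNR18 (142367 to 142468). The other subunit of eEF1B is encoded by TEF4 and CAM1, and both had a peak in the body. TEF4 reached 2.91 (2.40 to 3.50) and CAM1 3.67 (3.06 to 4.36), with 61.4% and 30.1% of the body covered.

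EFT1 and EFT2 had lower values than the eEF1A genes. At EFT2 the peak from 1243322 to 1246078 had a fold enrichment of 3.36 (2.82 to 3.98) with 132 fragments, and at EFT1 the peak from 575164 to 577555 had 3.05 (2.53 to 3.64) with 120 fragments. The interval of EFT1 lies below those of TEF1 and TEF2. That of EFT2 lies below that of TEF2 and overlaps that of TEF1. An overlap does not show that the values are alike, and no ratio was computed between these pairs. The ratio of EFT1 to EFT2 was 0.906 (0.701 to 1.17, log2 ratio -0.14), again over sequence that is mostly shared. The summits lie 2 bp apart, at base 761 and base 763, in the first part of the gene. The sequence around them is identical and is shown for EFT1 from base 711 to base 811 (chrXV:575808-575908, coding strand).
EFT1 summit: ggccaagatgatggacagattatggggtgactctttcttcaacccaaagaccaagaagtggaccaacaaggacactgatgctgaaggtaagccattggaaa

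Within 261 bp of the summit, 86.1% of the words were repeated in either gene. Both peaks begin inside the coding sequence, 66 bp after the start codon in EFT1 and 92 bp after it in EFT2, and share 96.1% of the body bases covered in either gene. They differ at the 3′ end. The EFT1 peak ends 71 bp before the stop codon, and the EFT2 peak goes on for 320 bp past it, up to 6 bp before MUS81, which encodes a DNA endonuclease. Of the EFT2 peak, 56 bp lie more than 261 bp from any repeated word, and of the EFT1 peak 0 bp. Under the same assumption no part of the EFT1 peak is out of reach of reads that fit both genes. Of its 2329 words, 2073 were repeated, and reads from the remaining words have a single place.

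TIF1 and TIF2, which encode the DEAD-box RNA helicase eIF4A of translation initiation, had the lowest values. TIF1 has 2 peaks, from 555436 to 555706 with a fold enrichment of 2.35 (1.88 to 2.91, 83 fragments) and from 555860 to 556162 with 2.33 (1.85 to 2.89, 79 fragments). TIF2 has a single peak from 153487 to 154243 with 2.09 (1.65 to 2.61, 76 fragments). All 3 values lie below the median of 2.44 over nuclear peaks, and their intervals include it. The ratio of TIF1 to TIF2 was 1.13 (0.816 to 1.56, log2 ratio 0.17). For all 3 pairs the ratio depends on how reads that fit both copies were assigned, so it shows neither a difference between the copies nor its absence.

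On the common coordinates, the TIF2 peak runs from base 449 to base 1205, 17 bp past the stop codon, while those of TIF1 run from base 450 to 720 and from base 874 to 1176. The pair thus begins 1 base apart and differs by a gap of 153 bp in TIF1, and 77.6% of the body bases covered in either gene were covered in both. The second peak of TIF1 begins at the base after position 873, where the genes differ. The sequence from base 823 to base 923 is shown because it spans this place, with the differing base in capitals.
TIF1: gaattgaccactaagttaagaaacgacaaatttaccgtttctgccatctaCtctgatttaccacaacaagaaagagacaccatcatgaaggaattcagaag
TIF2: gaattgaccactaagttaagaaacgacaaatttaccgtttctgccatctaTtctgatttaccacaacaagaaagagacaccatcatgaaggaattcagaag

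Of the words within the peaks of TIF1, 100% and 97.1% were repeated, and 85.6% in the peak of TIF2. No base of the 3 peaks lies more than 261 bp from a repeated word. Whether 1 copy or both carry the signal cannot be told apart here.

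**Figure D2:**
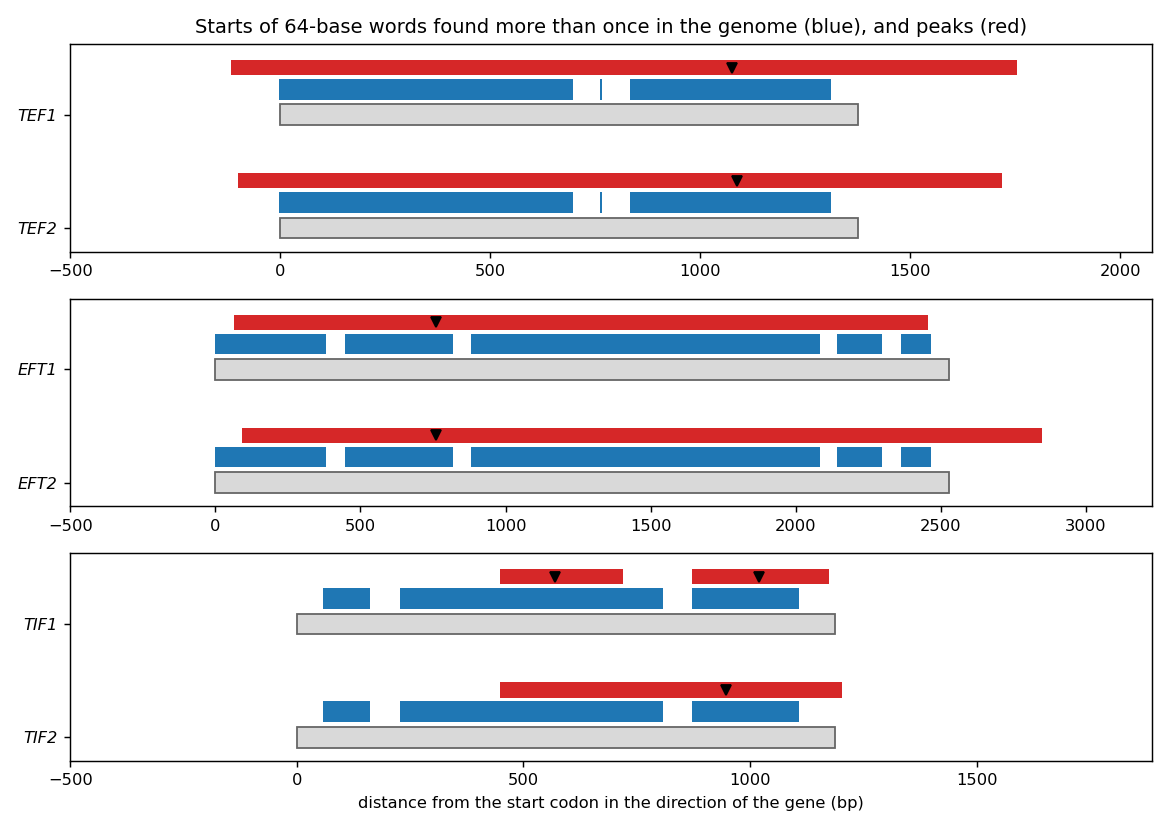
The paralog pairs TEF1 and TEF2, EFT1 and EFT2, and TIF1 and TIF2 with gene bodies in grey, the starts of 64-base words that occur more than once in the genome in blue, peaks in red and summits as triangles, against the distance from the start codon in bp. Repeated words fill 81.3% to 90.3% of the bodies and are absent outside them. The peaks of TEF1, TEF2, EFT2 and TIF2 and the second peak of TIF1 go on past the last blue starts at the 3′ side.

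In order of fold enrichment the genes were HYP2, TEF2, TEF1, YEF3, EFB1, EFT2, EFT1, TIF1 and TIF2. In 0 of the 8 comparisons between neighbours in this order did the interval of the ratio leave out 1, so the order of neighbours is not resolved by the counts. Of these comparisons, 3 are within the pairs and carry the limit of shared reads. Over the whole range, the counting intervals of the 4 highest genes lie above those of EFT1, TIF1 and TIF2. These intervals leave out the variation between cultures and the assignment of shared reads, and the summit counted for HYP2 lies in MTC7. A difference between the genes themselves is therefore not established. Among the 1543 nuclear peaks the strongest of these peaks, that at HYP2, holds rank 179, and that at TIF2 rank 1117.

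**Figure D3:**
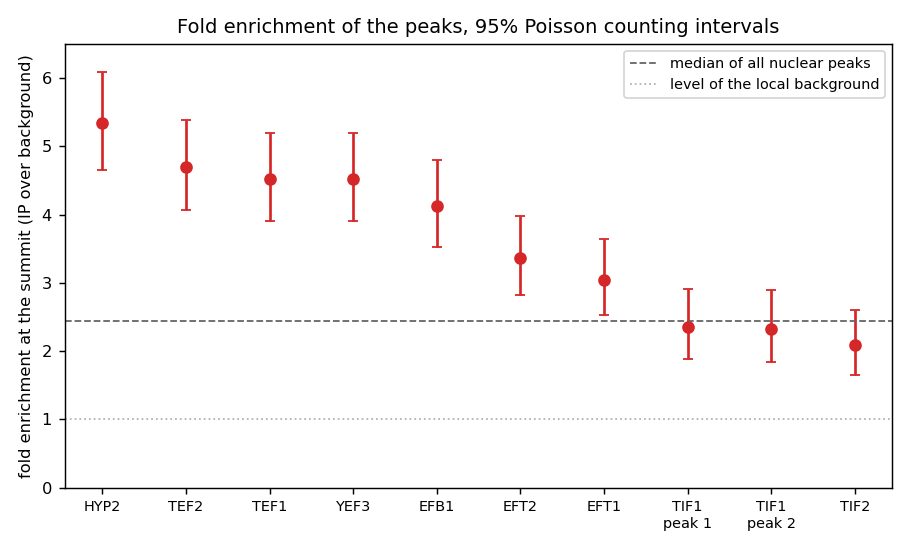
Fold enrichment at the summit (IP over local background, y axis) of the 10 peaks at the translation factor genes, with exact 95% Poisson intervals of the IP fragment number as bars. The values fall from 5.34 at HYP2 to 2.09 at TIF2, neighbours overlap in their bars, and the values of TIF1 and TIF2 lie below the median of nuclear peaks (dashed, 2.44), which their bars include.

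HYP2 has a paralog of much the same sequence that was not covered. ANB1 (YJR047C) encodes the form of eIF5A that is made when oxygen is low. Its coding sequence differs from that of HYP2 in 43 of 474 bases (90.9% identity) and its protein in 15 of 157 residues, and the longest common run of 43 bases is shorter than a read. Its window held 0 peaks, with the nearest peak 378 bp away. The first 120 coding bases of both genes are shown, with the 6 differing bases in capitals, because they show how reads of 64 bases can separate this pair and not the pairs above.
HYP2: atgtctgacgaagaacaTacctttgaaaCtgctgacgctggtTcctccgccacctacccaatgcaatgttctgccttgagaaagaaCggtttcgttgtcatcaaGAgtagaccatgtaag
ANB1: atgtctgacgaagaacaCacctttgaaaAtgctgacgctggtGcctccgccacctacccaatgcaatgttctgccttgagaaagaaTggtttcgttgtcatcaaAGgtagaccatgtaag

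A wider list of 34 other genes of initiation, elongation, termination and recycling was scored in the same way. A peak was found at 16 of them (47.1%, background 24.4%), a peak of 3-fold or more at 5 (background 10.8%), and a body at least 50% covered at 4 (background 8.11%). By step, 11 of 26 initiation genes, 3 of 5 elongation genes and 2 of 3 termination and recycling genes had a peak. The median of the highest fold enrichment was 2.61 over the 16 genes. DED1, a DEAD-box helicase that helps the ribosome scan the mRNA, had the highest value, 9.31, with 338 fragments and 87.9% of its body covered. Its paralog DBP1 had no peak, the nearest being 6851 bp from its window. TIF3 (eIF4B), a partner of eIF4A, reached 5.30, and RPG1, a subunit of eIF3, reached 3.98. TIF35 with 3.15 and NIP1 with 2.61, also subunits of eIF3, had 65.0% and 58.4% of the body covered.

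At several genes of this list the peak lay mostly or wholly outside the gene body. The peak counted for SUP45, the release factor eRF1, had 2.70 but covered 0.304% of the body. For GCD6, a subunit of the exchange factor of eIF2, the peak of 2.61 covered 96.6% of the upstream sequence and none of the body. FUN12 (eIF5B) had 2.44, likewise with no base of the body covered. Peaks were absent from the windows of CDC33, which encodes the cap-binding protein eIF4E, of the 3 genes of eIF2 (SUI2, SUI3 and GCD11), of SUI1 and TIF11 (eIF1 and eIF1A), and of RLI1, the ribosome recycling factor. A body at least 50% covered was thus found at 8 of the 9 genes and at 4 of the 34 genes of the wider list, a difference that was not tested.

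The 9 genes share a biased codon use. Yeast genes that are strongly expressed prefer the codons that ribosomal protein genes use, and the codon adaptation index measures this likeness on a scale up to 1. It was computed here with 132 ribosomal protein genes as the reference. The index of the 9 genes lay between 0.797 (TIF2) and 0.883 (TEF2). The median was 0.194 over 5809 protein-coding genes, with these 9 included and ribosomal protein genes left out. Ordered by the index, the 9 genes held places 8 to 30 among the 5809. Of the 100 genes with the highest index, these 9 included, 63 had a peak and 57 a body at least 50% covered. In the next 400 genes the shares were 39.5% and 12.5%, and in the remaining 5309 genes 20.7% and 5.09%. Genes of the wider list had a median index of 0.408 with a peak and 0.360 without. High codon adaptation did not always go with a peak, since ANB1 held place 43 with an index of 0.748 and had none, while HEF3 had 0.226. The index comes from sequence and not from a measurement of transcription in these cells, and its part in the signal was not tested.

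**Figure D4:**
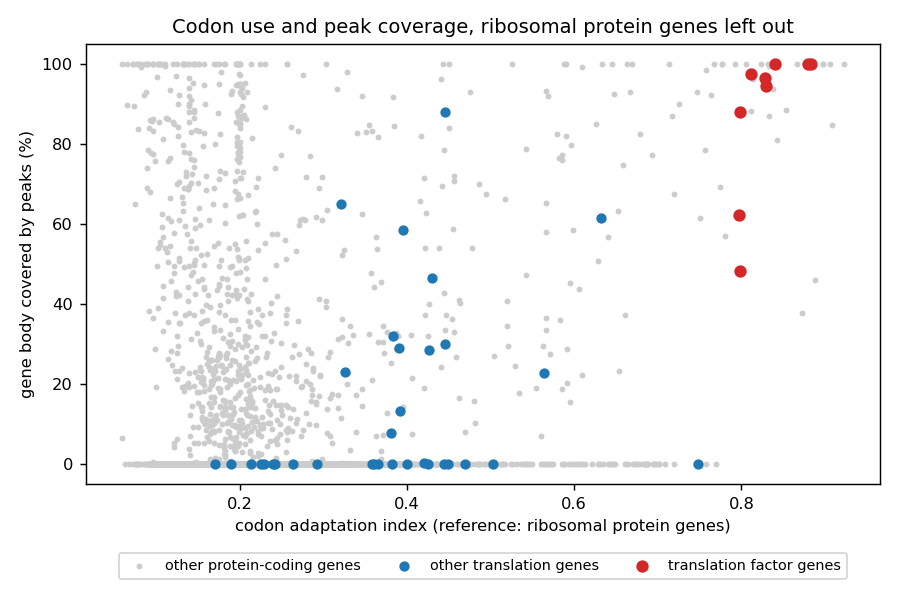
Share of the gene body covered by peaks (y axis, %) against the codon adaptation index (x axis), 1 point per protein-coding gene, with ribosomal protein genes left out. The translation factor genes (red) sit at an index of 0.797 to 0.883 with 48.3% to 100% of the body covered, and of the other translation genes (blue) ANB1 has a high index of 0.748 and no coverage.

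Ribosomal protein genes and glycolytic genes were scored likewise, as lists added after the data were seen. A peak was found at 121 of 132 ribosomal protein genes (91.7%) and at 14 of 17 glycolytic genes (82.4%), with medians of the highest fold enrichment of 2.61 and 3.31. Their bodies were covered over 69.7% and 63.2% of the bases, below the 90.0% of the translation factor genes. These differences were not tested, and the body length differs between the lists. Its median over all genes of a list, with or without a peak, was 783 bp for ribosomal protein genes, 1314 bp for glycolytic genes and 1377 bp for the translation factor genes.

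G4 motifs, written as 4 runs of at least 3 guanines separated by 1 to 25 bases of any kind on either strand, were found in the windows of 0 of the 9 genes and in 561 of 6000 windows (9.35%). This says only that the pattern is not in these windows of the reference. The paper used a published set of predicted motifs, which was not searched here and can differ from this pattern. The GC content of the gene bodies ranged from 39.2% in EFB1 to 44.6% in TEF2, with a median of 39.7% over all protein-coding genes. The core letters of the Rap1 motif, ACCCNNACA, were searched on both strands in the 500 bp upstream, because Rap1 drives many genes of the translation machinery. They were found at 1 of the 9 genes, TEF2, and at 328 of 6000 genes (5.47%). The match lies 435 to 427 bases before the start codon, with the matched bases in capitals (chrII:477224-477256), and outside the peak.
TEF2 upstream: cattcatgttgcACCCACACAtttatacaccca
The letters TATAAA, searched likewise, were found upstream of 5 of the 9 genes and of 60.5% of all genes. A match is not a bound site, and the lack of a match to these fixed letters does not show that a site is lacking.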

How the data were processed

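Samples were grouped as IP or input from the sample labels, and 1 deposited file, the pooled peak list, was used. The authors aligned single-end reads of 64 bases to sacCer3 with bowtie (Bowtie2 in the submitters' processing notes) and called narrow peaks with MACS2 at a q-value of 0.05. The header line of the list belongs to another MACS table, so columns were read by position. The deposited ratio is the fold enrichment at the summit, the deposited −log10 columns hold the p-value and q-value, and the deposited score, 10 times the −log10 q, was not used. Peak ends and chromosome lengths fit R64, the assembly of sacCer3.

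Peaks sharing at least 1 bp with a window were counted. Fold enrichment was taken as (fragments + 1)/(background + 1) to recover the fragments. Ratios carry exact conditional binomial 95% intervals that treat the background as known. No p-values were computed, since the list has no replicate values. Repeated words were counted on both strands of the R64 sequence. Scripts were tested on simulated data. Genes named are the 9 members, TEF4, CAM1, HEF3 and ANB1, the 10 strongest of the wider list, and neighbours at the peaks. Genes without a peak in that list, DBP1 and the genes named for coverage or low overlap were chosen after their values were seen, as were the codon index and the ribosomal protein and glycolytic lists. The members and lists were chosen with earlier results of these data known. Intervals were computed with SciPy 1.17.1 and NumPy 2.4.6 under Python 3.11.15, and plots were drawn with matplotlib 3.10.9. The reads, the qPCR and the microarray were not analysed here. The strain is W303 and the reference S288C, so differences between paralogs are those of the reference.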

Additional observations from a re-analysis of the deposited data

How the results depend on the processing

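The counts of genes with a peak and of peaks, the median of the highest fold enrichment and the ratios of the 3 pairs were recomputed under 9 alternatives: the summit inside the window, 100 bp of overlap, a minimum fold enrichment of 3, a −log10 q of 5, upstream sequence of 0, 250 or 1000 bp, merging of peaks closer than 300 bp, and removal of peaks that overlap an RNA gene. Of 71 values, 68 stayed within the limits set, which were 1.5 times for counts and the counting interval for folds. The ratios of the 3 pairs are among these values and were identical in every setting that gave them. No alternative changes the fold at a summit, so their agreement was fixed in advance and says nothing of their stability. Other values were fixed as well. The −log10 q of 5 could remove none of the 10 peaks, as their lowest value was 7.34. Merging kept the higher fold and could not lower the median. The limit of 1.5 times is also wide for a count of 9, so the 68 values are not a measure of stability. The 9 genes with a peak became 8 with the summit rule (without HYP2), 7 at 3-fold or more (without TIF1 and TIF2), and 7 without peaks over RNA genes (without EFB1 and HYP2, whose peaks cover SNR18 and a tRNA gene). In that last setting the median of the highest fold enrichment moved from 4.13 to 3.36. The genes left out were HYP2, with the highest value, and EFB1, whose value was the median. At 3-fold or more, the protein-coding genes with a peak moved from 1465 to 646 and the other translation genes from 16 to 5, because the setting keeps fewer peaks, and the ratio of TIF1 to TIF2 has no value. No paired analysis was possible because the peak list pools all libraries. For the same reason no library could be left out. Coverage of the bodies, summit places, peak lengths, the ribosomal protein and glycolytic lists, codon use and motifs were not recomputed. The comparison within pairs is limited by shared reads, since 81.3% to 90.3% of the words in these bodies fit more than 1 place, and deeper sequencing with reads of this length would not separate the copies there.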
